A study of Mus musculus with 9 samples.

Results

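Calcineurin is a phosphatase switched on by calcium and calmodulin. Its catalytic subunits work with a small calcium-binding regulatory subunit, and its best-known substrates are the NFAT transcription factors, which enter the nucleus once dephosphorylated. In skeletal muscle the pathway is known for maintaining slow, fatigue-resistant fibres. Its activity is limited by the inhibitor RCAN1 and by myozenins (calsarcins), which hold calcineurin at the Z-disc of the sarcomere. The 10 genes described here were chosen by name: Rcan1, the catalytic subunits Ppp3ca and Ppp3cb, the regulatory subunit Ppp3r1, the NFAT factors Nfatc1, Nfatc2, Nfatc3 and Nfatc4, and the myozenins Myoz1 and Myoz2. All 10 were found among the 23284 gene symbols of the count table, and all 10 passed the filter on low counts.

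Messenger RNA was sequenced from gastrocnemius, the large calf muscle, of 3-month-old mice after exercise, with 129/C57/BL6 given as the strain. The 4 knockout libraries were labelled with the genotype Grpc6afl/fl;Mck-Cre and the 5 control libraries with Grpc6afl/fl (the labels' spelling of Gprc6a, an amino acid and osteocalcin receptor gene). Both groups thus carried the loxP-flanked gene and were exercised, and only the knockouts carried Cre, driven by the muscle creatine kinase promoter, which is active in striated muscle and not in the other cells of the tissue. Neither Cre alone nor rested muscle was included, so Cre and the deletion cannot be told apart. Knockout titles give Gprc5a in place of Gprc6a, and Gprc6a itself had 0 counts in all 9 libraries, so the counts do not check the labels. Whether each library came from its own mouse is not labelled, so a p-value reflects library-to-library spread, which may be technical.

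Total counts were 19522947 to 22796548 per knockout library and 20401633 to 25608659 per control library. Levels are given in CPM, the count scaled to a common library total. The 12 fast fibre genes listed, led by Atp2a1 and Myh4, summed in the range 138229 to 179824 CPM for knockouts, against 133533 to 180437 CPM for controls. The slow fibre list of 15 genes summed in the range 10804 to 17753 CPM for knockouts, against 11476 to 18160 CPM for controls. That list was led by Myh2, itself a fast oxidative myosin, and Mb, and also held the regulators Mef2a, Mef2c, Mef2d and Ppargc1a. Libraries differed in how strongly they favoured long transcripts. In each library, the log2 level of each gene minus its mean over all libraries was fitted on log2 exon length. The slope, per doubling of length, was 0.04, 0.05, -0.16 and -0.08 in knockouts 1 to 4 and 0.19, -0.01, 0.01, 0.11 and -0.15 in controls 1 to 5. Relative to the mean library, knockouts 3 and 4 and control 5 thus leaned to short transcripts, and controls 1 and 4 to long ones. Adipocyte markers, all 10 detected and led by Fabp4 and Cfd, summed to between 284 and 498 CPM in the knockouts, against 279 to 489 CPM in controls 1 to 3, 971 CPM in control 4 and 877 CPM in control 5. In whole muscle, fewer cells of a type and less RNA per cell cannot be told apart.

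None of the 10 genes differed between knockout and control muscle beyond the spread between libraries. In edgeR's quasi-likelihood test, 0 of the 10 had an adjusted p under 0.05, where 0% of the 13198 tested genes were called higher and 0% lower. At an unadjusted p under 0.05 there was 1 of 10, Nfatc1, where 3.24% of all genes reached it, 1.43% higher and 1.8% lower. DESeq2 called 0 of the 10, with 0.0165% of its 18193 genes called lower and 0% higher. The groups overlapped in all 10, whereas the 4 knockouts were all under the 5 controls in 0.371% of tested genes and all over them in 0.439%. The log2 fold change (knockout minus control) was below 0 in 7 of the 10, as in 50.6% of all tested genes. Its median over the 10 was -0.03, against -0.00 over all tested genes.

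**Figure D1:**
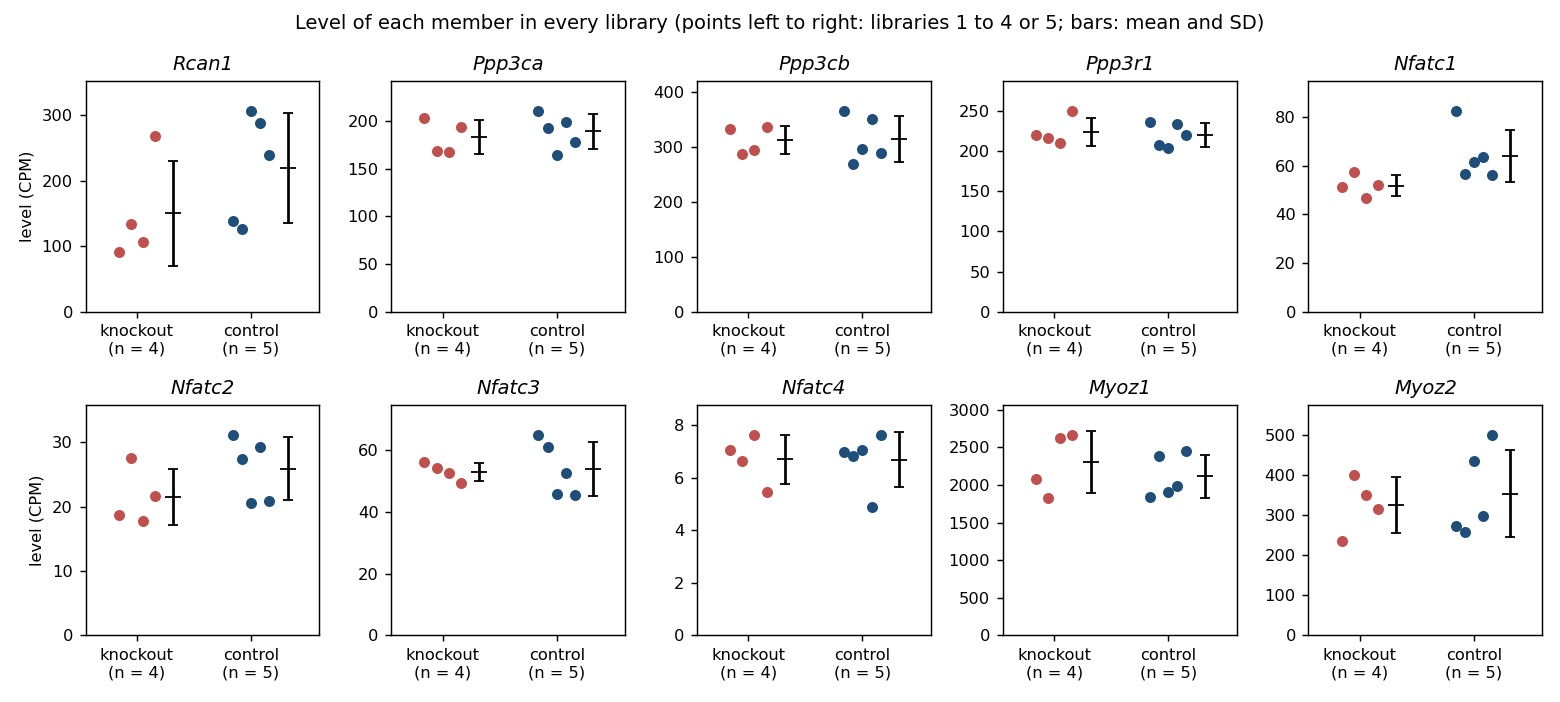
Level of each of the 10 genes in CPM (vertical axis, from 0) in the 4 knockout and 5 control libraries, with points for libraries in number order and a bar for the mean and SD. The groups overlap in every panel, Rcan1 splits into high and low libraries within both groups, and the highest knockout point of Nfatc1 is at 57.4 CPM.

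Rcan1 encodes an inhibitor that binds calcineurin, and its transcription is known to be raised by calcineurin and NFAT, which makes it a common readout of the pathway. That regulation is known to act on a downstream start of the gene, which gives a shorter isoform. RefSeq lists both starts, and the windows are shown because they differ in their NFAT letters. Each covers 250 bases before to 50 after the start, on the minus strand of GRCm38.p6, at chr16:92466120-92466419 for the upstream and chr16:92400029-92400328 for the downstream start. Capitals mark GGAAA (the NFAT core), TGANTCA (AP-1, a usual partner of NFAT) and TGACGTCA (the cyclic AMP response element), searched on both strands, and no matches overlapped. AP-1 and the cyclic AMP element were added after the downstream window had been read.
Rcan1 upstream start: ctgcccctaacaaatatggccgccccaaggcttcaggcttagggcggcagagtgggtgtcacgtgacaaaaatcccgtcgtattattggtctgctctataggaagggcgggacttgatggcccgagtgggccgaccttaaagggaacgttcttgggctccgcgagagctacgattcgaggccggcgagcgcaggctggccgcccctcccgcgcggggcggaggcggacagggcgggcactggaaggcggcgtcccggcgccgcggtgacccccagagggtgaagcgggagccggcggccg
Rcan1 downstream start: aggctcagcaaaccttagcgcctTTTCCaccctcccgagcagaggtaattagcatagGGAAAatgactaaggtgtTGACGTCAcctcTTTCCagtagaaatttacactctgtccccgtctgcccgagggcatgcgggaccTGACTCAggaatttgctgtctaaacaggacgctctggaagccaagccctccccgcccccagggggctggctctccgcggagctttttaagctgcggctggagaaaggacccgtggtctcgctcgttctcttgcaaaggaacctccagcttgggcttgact
The upstream window held none of these words. The downstream window held 3 NFAT cores, 1 AP-1 word and 1 cyclic AMP element. NFAT cores were not particular to it. Member windows on 1 chromosome had been left out, and none of Myoz1, Ppp3ca or Nfatc1 was counted. Of 10 windows matched to 7 of the 10 genes, 7 held at least 1 core. There were 4 in that of Ppp3cb, 3 in that of Nfatc4, 3 in 1 of those of Nfatc2, and 2 with an AP-1 word in that of Myoz2. Of all 32851 RefSeq start windows, 61.3% held at least 1 NFAT core, 26.7% at least 2 and 9.42% at least 3. An AP-1 word stood in 7.81% of them and a cyclic AMP element in 1.79%. The deposited counts are per gene, so they do not separate the transcripts of the 2 starts, and a match of letters is not a measured site.

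Rcan1 was the most variable of the 10 genes. It stood at 91.5, 135, 106 and 268 CPM in knockouts 1 to 4, against 138, 126, 306, 289 and 240 CPM in controls 1 to 5. Knockout 4 and controls 3, 4 and 5 were high and the other 5 libraries low, so both groups held high and low libraries. The label descriptions also carry a GP number that runs over both groups. The 4 high libraries held its highest numbers and the 5 low ones its lowest. Of the high libraries 1 was a knockout and 3 were controls, so genotype and that order cannot be fully told apart. What the GP number stands for is not given, and its part in the level of Rcan1 was not tested. The lowest library was knockout 1 and the highest control 3, which were 3.35-fold apart. The mean was 150 ± 80.8 CPM in knockouts (SD, n = 4) and 220 ± 84.1 CPM in controls (n = 5). The log2 fold change was -0.55 (SE 0.36, 95% interval -1.34 to 0.24, edgeR adjusted p = 0.965), and 3 of 4 knockouts lay below the control median. That interval spans 0.394-fold to 1.18-fold. Without knockout 4, the single high knockout, the log2 fold change was -0.99 (edgeR unadjusted p = 0.00985, adjusted p = 0.9998). That fit left no knockout among the high GP numbers, where 3 controls remained, so its genotype contrast is more mixed with that order. Without controls 4 and 5 the log2 fold change was -0.33 (edgeR adjusted p = 0.911).

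The coefficient of variation of Rcan1 over the 9 libraries was 45.3%. Only 1.86% of the 9391 genes with at least 5 CPM varied more, and the median of those genes was 13.7%. The Pearson correlation of Rcan1 with the length slope over 9 libraries was -0.06, a description only. With that slope in the fit the log2 fold change was -0.64 (SE 0.46), and without the 3 libraries that leaned to short transcripts it was -0.92 (SE 0.45). The genes whose levels followed Rcan1 most closely, by Pearson correlation of log2 levels over the 9 libraries among the 9390 other such genes, were Lmod2 (r = 0.93), the actin filament protein leiomodin 2, the carbonic anhydrase Car2 (r = 0.93) and the transcription factor Irf2 (r = 0.93). Lmod2 stood at 234, 294, 199 and 455 CPM in knockouts, against 369, 217, 587, 591 and 592 CPM in controls, high in the same 4 libraries as Rcan1. Adipocyte markers were also highest in controls 4 and 5, and their part in the level of Rcan1 was not tested beyond the fit without them.

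The catalytic and regulatory subunits of calcineurin varied less between libraries than the median gene. Ppp3ca, the alpha catalytic subunit, stood at 204, 168, 168 and 193 CPM in knockouts, against 210, 193, 164, 199 and 178 CPM in controls. Ppp3cb, the beta catalytic subunit, stood at 333, 287, 294 and 337 CPM in knockouts, against 365, 269, 296, 350 and 289 CPM in controls. Ppp3r1, the regulatory B subunit, stood at 220, 217, 211 and 250 CPM in knockouts, against 236, 208, 204, 234 and 220 CPM in controls. High and low libraries were spread over both groups in each of the 3 genes. Their coefficients of variation were 9.21% for Ppp3ca, 10.6% for Ppp3cb and 6.75% for Ppp3r1, against that median of 13.7%. Of the genes with at least 5 CPM, 78.0% varied more than Ppp3ca, 69.0% more than Ppp3cb and 91.6% more than Ppp3r1.

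The mean level of Ppp3ca was 183 ± 18.1 CPM in knockouts and 189 ± 18.1 CPM in controls, a log2 fold change of -0.04 (SE 0.10, 95% interval -0.27 to 0.18). Ppp3cb averaged 313 ± 25.6 CPM in knockouts and 314 ± 41.4 CPM in controls, a log2 fold change of -0.00 (SE 0.11, 95% interval -0.25 to 0.24). Ppp3r1 averaged 224 ± 17.5 CPM in knockouts and 220 ± 14.5 CPM in controls, a log2 fold change of 0.03 (SE 0.09, 95% interval -0.17 to 0.22). The edgeR adjusted p was 0.969 for Ppp3ca, 0.999 for Ppp3cb and 0.978 for Ppp3r1, and each interval lay between 0.830-fold and 1.18-fold. In GENCODE M21, 14.7% of the 50-base words of Ppp3r1 also stand in Wdr92, so part of its reads could be split between them. Per length, the ratio of Ppp3cb to Ppp3ca was 1.64, 1.71, 1.76 and 1.74 in knockouts and 1.73, 1.39, 1.804, 1.76 and 1.62 in controls. The beta subunit was thus the more abundant transcript in all 9 libraries, at 63.1% ± 0.745 of the pair in knockouts and 62.3% ± 2.46 in controls. Control 2 had the lowest ratio.

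**Figure D2:**
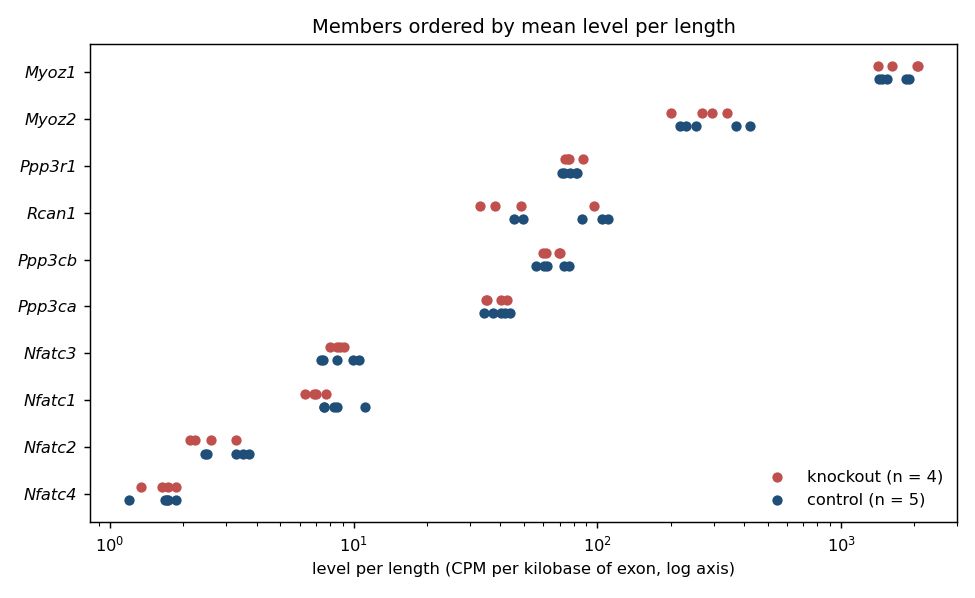
Level per length of each gene (horizontal log axis, CPM per kilobase of exon), knockout libraries above control libraries in each row, with genes ordered by their mean over the 9 libraries. Myoz1 averages 1705 and Nfatc4 averages 1.64 CPM per kilobase, and the ranges of Ppp3r1, Rcan1 and Ppp3cb overlap.

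Levels per length differed widely between the 10 genes. Myoz1 averaged 1705 ± 263 CPM per kilobase of exon over the 9 libraries (SD) and Myoz2 289 ± 75.2. They were followed by Ppp3r1 at 77.6 ± 5.24, Rcan1 at 68.0 ± 30.8, Ppp3cb at 65.5 ± 6.94 and Ppp3ca at 38.9 ± 3.59. The NFAT factors were lowest, with Nfatc3 at 8.68 ± 1.05, Nfatc1 at 7.88 ± 1.39, Nfatc2 at 2.85 ± 0.591 and Nfatc4 at 1.64 ± 0.227. The ranges of neighbours overlapped for Ppp3r1 and Rcan1, for Rcan1 and Ppp3cb, and for Nfatc3 and Nfatc1, so the order within these pairs was not separated. With the longest coding transcript as length, Nfatc1 averaged 12.2 and Nfatc3 8.95 CPM per kilobase, so their order depends on the length used.

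Nfatc1, an NFAT factor known in muscle as a regulator of slow fibre genes, had the smallest p among the 10 genes. It stood at 51.1, 57.4, 46.8 and 51.9 CPM in knockouts, against 82.4, 56.4, 61.5, 63.7 and 56.0 CPM in controls. All 4 knockouts lay below the control median, and the groups overlapped by 1 knockout, number 2, that stood above controls 2 and 5. The mean was 51.8 ± 4.33 CPM in knockouts and 64.0 ± 10.8 CPM in controls, a log2 fold change of -0.30 (SE 0.12, edgeR unadjusted p = 0.0307, adjusted p = 0.965). Its value was -0.20 without control 1, the highest library (SE 0.10, edgeR unadjusted p = 0.0694). With the length slope of each library in the fit it was -0.21, with a smaller SE of 0.08 (edgeR unadjusted p = 0.0219, adjusted p = 0.999). Over 9 libraries the level of Nfatc1 had a Pearson correlation of 0.79 with the length slope, and the part of that skew in the difference was not tested beyond that fit.

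Nfatc2, an NFAT factor known for its role in lymphocytes, stood at 18.8, 27.5, 17.8 and 21.6 CPM in knockouts, against 31.1, 27.4, 20.5, 29.3 and 20.8 CPM in controls. Knockout 2 lay among the high controls, and controls 3 and 5 among the low knockouts. The log2 fold change was -0.27 (SE 0.17, 95% interval -0.63 to 0.09, edgeR adjusted p = 0.965), -0.15 with the length slope in the fit and -0.41 without knockout 2. Nfatc3 stood at 56.1, 54.2, 52.5 and 49.3 CPM in knockouts, inside the range of the controls at 65.0, 61.0, 46.0, 52.5 and 45.3 CPM. Its log2 fold change was -0.02 (SE 0.12). Nfatc4 was the lowest of the 4, at 103 to 182 counts per library. It stood at 7.05, 6.65, 7.63 and 5.46 CPM in knockouts, against 6.99, 6.84, 7.06, 4.90 and 7.63 CPM in controls, a log2 fold change of 0.01 (SE 0.15). In GENCODE M21, 3.55% of the exon bases of Nfatc3 lie opposite exons of Esrp2 on the other strand, and the strand setting of the counting is not given in the sources used here.

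Within the NFAT family, shares of the summed level per length were 35.2% ± 1.54 for Nfatc1 in knockouts and 39.0% ± 3.06 in controls. They were 43.6% ± 2.24 in knockouts and 39.5% ± 2.62 in controls for Nfatc3, 12.9% ± 1.98 in knockouts and 13.9% ± 1.47 in controls for Nfatc2, and 8.32% ± 1.26 in knockouts and 7.55% ± 1.71 in controls for Nfatc4. Nfatc1 and Nfatc3 together made up most of the family's RNA in every library. NFAT factors are also made by blood and vessel cells. The T and B cell markers, led by Cd3e, gave a sum between 1.75 and 2.70 CPM for knockouts, against 1.05 to 4.13 CPM for controls, and 7 of the 8 averaged under 1 CPM. For the endothelial markers, all 8 present, the sum lay between 352 and 379 CPM in knockouts, against 333 to 358 CPM in controls. Macrophage markers, with 7 of 8 in the table, gave 108 to 124 CPM in knockouts, against 97.1 to 129 CPM in controls. Their part in the NFAT levels was not tested.

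**Figure D3:**
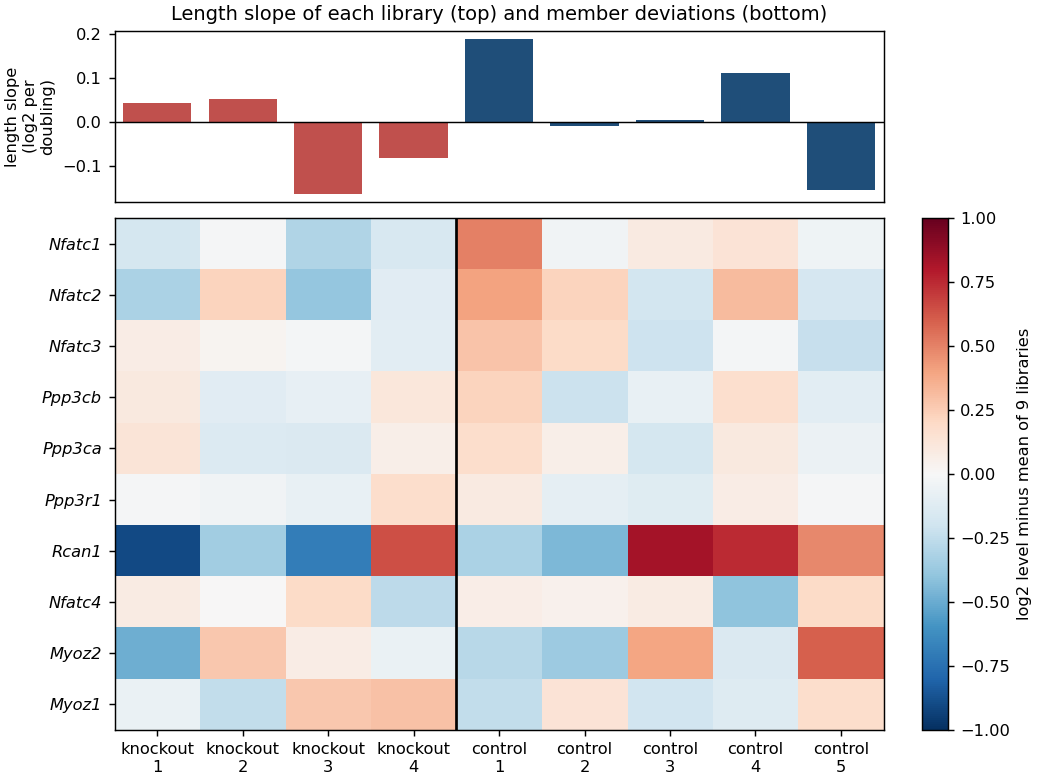
Top, the slope on transcript length of the log2 level minus each gene's mean, in each library (log2 per doubling of length, knockouts left). Bottom, the log2 level of each gene minus its mean over the 9 libraries, with genes ordered by their correlation with that slope. Nfatc1 is at the top with r = 0.79, Myoz1 at the bottom with r = -0.84, and Rcan1 shows the widest swings.

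Of the 10 genes, 5 had a Pearson correlation over 0.5 with the length slope: Nfatc1 (0.79), Nfatc2 (0.75), Nfatc3 (0.63), Ppp3cb (0.58) and Ppp3ca (0.56). These are long transcripts, with 4784 to 8367 exon bases in GENCODE M21. Nfatc4, nearly as long at 4080 exon bases, had -0.36. Ppp3r1 (2859 exon bases) had 0.25, Rcan1 (2777) -0.06 and Myoz2 (1181) -0.50. The slope was itself fitted on length over 13068 genes, so that long transcripts follow it is partly built in. Myoz1, with 1289 exon bases, went the other way at -0.84. Each value is a description over 9 libraries that share their preparation, per the labels' protocol. In the plot of deviations by library these 5 genes were highest together in control 1, the library that leaned most to long transcripts.

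Myoz1 encodes a myozenin of fast fibres and was the most abundant of the 10 genes. It stood at 2077, 1833, 2629 and 2666 CPM in knockouts, against 1837, 2390, 1906, 1987 and 2455 CPM in controls. Knockouts 3 and 4 were the highest libraries and knockout 2 the lowest. The mean was 2301 ± 412 CPM in knockouts and 2115 ± 287 CPM in controls, a log2 fold change of 0.12 (SE 0.14, 95% interval -0.19 to 0.43, edgeR adjusted p = 0.965). It was 0.22 without knockout 2, 0.051 without knockout 3, 0.043 without knockout 4, 0.075 without control 1 and 0.19 without control 5. It was 0.01 with the length slope in the fit and -0.05 without the 3 libraries that leaned to short transcripts.

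Myoz2 encodes the myozenin of slow fibres and heart. It stood at 236, 400, 349 and 316 CPM in knockouts, against 273, 257, 436, 299 and 501 CPM in controls. Knockout 2 and controls 3 and 5 were the 3 highest libraries, and knockout 1 was the lowest. The log2 fold change was -0.12 (SE 0.22, 95% interval -0.59 to 0.35, edgeR adjusted p = 0.965). Its sign turned without knockout 1 (0.0082) or without control 5 (0.052). Per length, Myoz2 stood at 0.124, 0.238, 0.145 and 0.130 of Myoz1 in knockouts and at 0.162, 0.117, 0.250, 0.164 and 0.223 in controls. The mean ratio was 0.159 ± 0.0534 in knockouts and 0.183 ± 0.0527 in controls, a difference smaller than either SD. Myoz1 RNA thus exceeded Myoz2 RNA in all 9 libraries.

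Myoz2 followed the slow fibre genes from library to library. The 3 genes with the highest Pearson correlation of log2 level with it over the 9 libraries were Myl2 (r = 0.99), the slow and cardiac regulatory myosin light chain, the small heat shock protein Cryab (r = 0.98) and Tnnt1 (r = 0.98), the slow troponin T. Myl2 stood at 536, 1124, 860 and 802 CPM in knockouts, against 681, 589, 1198, 768 and 1357 CPM in controls. The summed slow fibre list, led by Myh2 and Mb, was 10804, 17753, 14022 and 12322 CPM in knockouts, against 13775, 11476, 18160, 13651 and 17408 CPM in controls. It was highest in the same 3 libraries as Myoz2. The share of slow fibres in the piece of muscle taken was not measured, and its part in the level of Myoz2 was not tested.

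**Figure D4:**
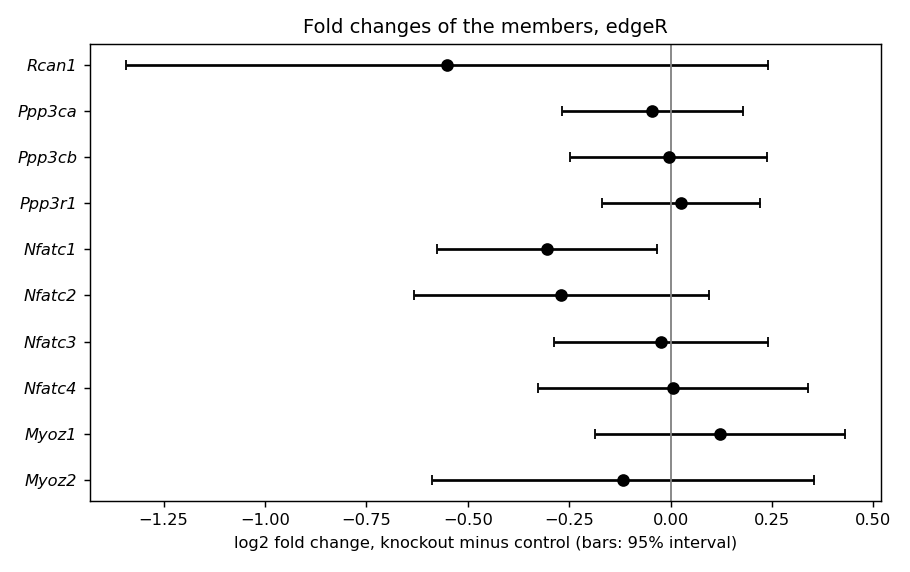
Log2 fold change of each gene, knockout minus control (horizontal axis), with its 95% interval from the edgeR fit. Only the interval of Nfatc1, -0.58 to -0.03, leaves out 0 before adjustment, and that of Rcan1 is the widest.

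Other genes of the pathway were read from 7 lists by role, and no gene of them was called. Of 13 tested other calcineurin subunits, inhibitors, anchors and calmodulin genes, 0 rose and 0 fell, with a median log2 fold change of -0.00. The smallest p-values were those of the anchors Akap5 and Akap6. Akap5 was near the detection floor, at 0.517 ± 0.176 CPM in knockouts and 0.289 ± 0.128 CPM in controls (log2 fold change 0.82, SE 0.38). Akap6, which anchors kinases and calcineurin at the nuclear envelope of muscle cells, averaged 70.4 ± 10.4 CPM in knockouts and 85.6 ± 13.4 CPM in controls (-0.28, SE 0.14, and -0.18 without the 3 libraries that leaned to short transcripts). Ppp3r2, the other regulatory subunit gene, had 0 counts in all libraries. The list of kinases and scaffolds that oppose NFAT also held Nfat5. None of its 15 genes was called and the median was -0.11, with 11 below 0, where 50.6% of all tested genes were below 0. Nfat5, the osmotic relative of NFAT that calcineurin does not control, stood at -0.25 (SE 0.19), at -0.084 with the length slope in the fit and at -0.11 without control 1 or -0.14 without knockout 3. The kinase Mapk8 (JNK1) stood at -0.12 (SE 0.09), at -0.073 with the length slope in the fit and at -0.076 without knockout 3.

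Of 10 tested calcium entry genes, none was called and the median was -0.12. The calcium release channel Itpr2 stood at -0.44 (SE 0.25), at -0.20 with the length slope in the fit and at -0.28 without the 3 libraries that leaned to short transcripts. The calcium sensor Stim2 stood at -0.17 (SE 0.11), at -0.090 without knockout 2 and at -0.100 without controls 4 and 5. The 14 Z-disc partners of the myozenins had a median of -0.01, 7 above and 7 below 0, with the LIM proteins Pdlim3 at 0.21 (SE 0.12) and Csrp3 at 0.33 (SE 0.22). Csrp3 stood at 0.50 without knockout 1, 0.13 without knockout 3, 0.19 with the length slope in the fit and 0.11 in limma-voom. Among 10 other calcineurin substrates the median was -0.04, with the transcription factors Foxo1 at -0.67 (SE 0.29, edgeR unadjusted p = 0.0432, adjusted p = 0.965) and Foxo3 at -0.73 (SE 0.35). Foxo3 stood at -0.37 with the length slope in the fit and at -0.47 without the 3 libraries that leaned to short transcripts. Foxo1 stood at 41.4, 37.1, 42.8 and 59.6 CPM in knockouts, against 45.7, 39.3, 102, 66.2 and 106 CPM in controls. Foxo1 was highest in controls 3 and 5, followed by control 4 and knockout 4, and these were the same libraries in which Rcan1 was high. Leaving out 1 library gave log2 fold changes of -0.83 to -0.48 for Foxo1.

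**Figure D5:**
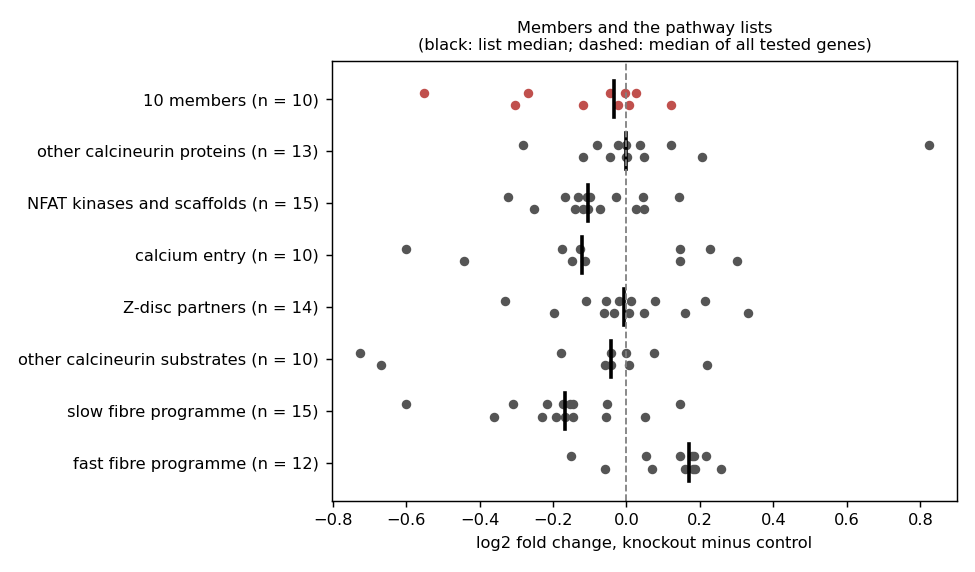
Log2 fold change, knockout minus control (horizontal axis), of the 10 genes and of the tested genes of 7 pathway lists, 1 point per gene, with the median of each list in black and that of all tested genes dashed. The slow fibre list has a median of -0.17 and the fast fibre list of 0.17.

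The fibre programmes linked to the pathway were the pathway lists farthest from the median of all tested genes, in opposite directions. The slow fibre list had a median of -0.17, with 13 of 15 below 0, where 50.6% of all tested genes were below 0. The fast fibre list had a median of 0.17, with 10 of 12 above 0. Both sums overlapped between the groups. The slow list gave 10804 to 17753 CPM in knockouts and 11476 to 18160 CPM in controls. The fast list gave 138229 to 179824 CPM in knockouts and 133533 to 180437 CPM in controls. Genes of a list such as Myl2 and Tnnt1 moved together between libraries, so these counts are not of independent genes. No gene of either list was called. The calcium pump of slow fibres, Atp2a2, averaged 1375 ± 500 CPM in knockouts and 1765 ± 423 CPM in controls (log2 fold change -0.36, SE 0.23). Knockout 2 and control 3 were its highest libraries. It stood at -0.63 without knockout 2, -0.22 without knockout 3, -0.22 without control 3 and -0.11 without the 3 libraries that leaned to short transcripts. Mef2a, a transcription factor that works with NFAT at slow fibre genes, stood at -0.60 (SE 0.48). That value was -0.06 with the length slope in the fit, -0.29 without control 1, -0.35 without knockout 3 and -0.28 without the 3 libraries that leaned to short transcripts. Mef2a stood at 12.9, 18.8 and 13.8 CPM in knockouts 3 and 4 and control 5. Of the fast list, the fast myosin light chain Myl1 averaged 4073 ± 33.0 CPM in knockouts, against 3581 ± 226 CPM in controls (log2 fold change 0.19, SE 0.09, edgeR adjusted p = 0.965). For Myl1 all 4 knockouts lay above all 5 controls, as in 0.439% of all tested genes.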

How the data were processed

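Counts per gene symbol were deposited by the authors as raw whole numbers without normalization, 1 column per library. HTSeq 0.6.1, TopHat, Bowtie 0.12.7 and bcl2fastq 1.8.4 are named, and mm9 as build, per the submitters' processing notes. Which annotation, strandedness or filter was used is not given in the sources used here. Per the labels' protocols, RNA of integrity number 6.7 or more was amplified with a NuGEN Ovation kit. All 23284 genes were fitted together in edgeR 4.0.16 (R 4.3.3): filterByExpr with a minimum count of 10 (13198 genes kept), TMM scaling, and the robust quasi-likelihood F-test of knockout against control, with Benjamini-Hochberg adjustment over all tested genes and a threshold of 0.05. Each SE was taken from the log2 fold change and its F statistic. The edgeR steps were run on simulated counts with the same dispersion for every gene and no length skew. That setting is simpler than these data and does not cover a gene as variable as Rcan1. DESeq2 1.42.0 and limma 3.58.1 were alternatives, besides other scalings and filters, left-out libraries, a replicate block and, chosen after seeing the data, the length slope as a covariate. Lengths are unions of exons of the GENCODE M21 basic set (GRCm38), found for 13068 of the 13198 tested genes. Levels in CPM use these scaled totals, and log2 levels for correlations add 0.5 CPM. The floor set by 0 counts was 3 counts (0.117 to 0.154 CPM by library) and covers counting error only. No pair within a group looked like 1 library deposited again (chi-square over its degrees of freedom, 17.7 to 98.3). The members and lists were chosen with earlier results of these data known. Named were all members, from each pathway list the genes called or else the 2 of smallest p, and the 3 genes most correlated with Rcan1 and Myoz2; Ppp3r2 was named after its counts were seen. A gene that this rule names is not reported here. Start windows were matched by symbol in RefSeq (GRCm38.p6), with member windows on 1 chromosome left out, and only those of Rcan1 are shown.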

Additional observations from a re-analysis of the deposited data

Results flagged for a closer look

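The level of Nfatc4 in control 4, 4.90 CPM, stood apart from the other 4 controls, which lay between 6.84 and 7.63 CPM. It was the only 1 of 26 groups of values checked for a lone library (the 10 genes, both ratios and the length slope, in each genotype), and chance flags about 1 in 20. Knockout 4 was also the lowest knockout for this gene, at 5.46 CPM. Without control 4 the log2 fold change of Nfatc4 was -0.087.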

How the results depend on the processing

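No member passed the threshold in any of the 19 alternatives (190 values, smallest adjusted p = 0.413), and neither did the named pathway genes in the 264 values that could be computed, 0 of which changed sign. Those pathway genes were named for the smallest p of their list in the same comparison, so that their sign held is partly built in. Akap5 had no value with at least 50 counts in 4 libraries or without control 2. Rcan1, Nfatc1 and Nfatc2 were below 0 throughout, at -0.99 to -0.33, -0.36 to -0.20 and -0.41 to -0.15. The other 7 members lay between -0.23 and 0.22, and 29 of the 190 values changed sign. Leaving out 1 library gave ranges for Ppp3ca from -0.10 to -0.0034, Ppp3cb from -0.055 to 0.055, Ppp3r1 from -0.032 to 0.053, Nfatc3 from -0.075 to 0.052, Nfatc4 from -0.087 to 0.088, Myoz1 from 0.043 to 0.22 and Myoz2 from -0.23 to 0.052. Nfatc4 was -0.014 with library totals only. In limma-voom with quality weights Ppp3ca was 0.019, Ppp3cb 0.0091 and Nfatc3 0.046. Without controls 4 and 5, Ppp3cb was 0.023, Nfatc4 -0.043 and Myoz2 0.027. Without control 5 and knockouts 3 and 4, Ppp3r1 was -0.011, Myoz1 -0.051 and Myoz2 0.013. With the length slope as covariate, Ppp3ca was 0.00025, Ppp3cb 0.058, Nfatc3 0.049 and Nfatc4 -0.035. The cause of these shifts was not tested.

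Over all genes 0 were called by edgeR, while 427 had an unadjusted p under 0.05. DESeq2 called 3 (Dnajb1, Fosb and Has1, all lower), and the replicate block 1 (Fosb, adjusted p = 0.0304), named after their values were seen. Under the block Myoz2 was 0.046, Foxo1 -0.40 and Mef2a -0.94. The labels do not say that a shared number pairs libraries: same-numbered pairs had correlations of -0.08 to 0.47, over 0.1 in 2 of 4, and 1 of 4 knockouts correlated best with its own number. The block used the replicate number only, and no fit used the GP number of the descriptions. The ratio of Ppp3cb to Ppp3ca averaged 1.68, and 2.08 with the longest coding transcript as length, because that length of Ppp3cb is 3831 bases in place of 4784. At 103 to 182 counts per library, Nfatc4 was the member most limited by depth.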
